A study of Mus musculus with 2 samples.

Results

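The 8 genes described here serve the liver's switch to fat as fuel: Bdh1, Acat1 and Slc16a1 for the synthesis and export of ketone bodies, Pdk1, Pdk2 and Pdk4 as pyruvate dehydrogenase kinases, the transcription factor gene Creb3l3, and the pantetheinase gene Vnn1. They were chosen by gene symbol, and all 8 were found among the 24421 genes of the count files. The RNA came from livers of male C57BL/6 mice that went on a high-fat diet at 6 weeks of age and stayed on it for 12 weeks. The control group was RORα f/f, with floxed alleles of the nuclear receptor gene Rora, and its library is called the f/f library here. The other group was RORα f/f:Alb-Cre, a liver-specific knockout labelled LKO. There the albumin promoter drives Cre in hepatocytes, and recombination in other liver cells was not tested. Both groups carried floxed Rora and received the same diet, and there was no lean group. Each group is 1 library. The sources used here do not say whether it pools animals, whether the mice were fed or fasted, or at what hour tissue was taken.

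Between meals the liver burns fatty acids to acetyl-CoA and turns part of it into ketone bodies. Acetoacetate is made in mitochondria, is partly reduced there to β-hydroxybutyrate, and both leave the hepatocyte through monocarboxylate transporters to fuel brain, heart and muscle. At the same time pyruvate dehydrogenase kinases phosphorylate and switch off the pyruvate dehydrogenase complex, so that carbon from glucose is spared. The fatty acid receptor PPARα drives much of this program, and Pdk4 and Vnn1 are well-known targets of it.

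Total counts were 128201591 in the f/f library and 131843686 in the library labelled LKO. Levels are given as CPM, counts relative to the TMM-scaled library size, a scaling that sets the bulk of genes level between the libraries. With 1 library per group there is no spread between replicates, no test was possible, and each ratio compares these 2 libraries only. Intervals of ratios are exact at the 95% level and cover counting error alone. The 11137 genes whose mean reached 1 CPM and whose counts summed to at least 20 are called measured. A measured gene was counted as higher or lower in the library labelled LKO when the ratio passed 1.5-fold and the interval excluded 1. The total of Rora was not lost, at 3701 and 3677 counts, which is 33.4 CPM in the f/f library and 24.1 CPM in the other, so directions are given for the library labelled LKO and not for loss of RORα.

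All 8 genes were measured, each with at least 455 counts in either library. Vnn1, Pdk4, Bdh1 and Pdk1 were higher in the library labelled LKO, by 5.39-fold, 3.63-fold, 1.75-fold and 1.72-fold. Pdk2 was 1.39-fold higher and stayed below the threshold, while Creb3l3, Slc16a1 and Acat1 had ratios of 1.02, 0.931 and 0.892. So 4 of 8 passed the threshold upwards, as did 10.5% of measured genes, and 0 of 8 downwards, as did 9.76% of measured genes. The median log2 ratio of the 8 was 0.63 and that of all measured genes −0.003, with the 25th and 75th percentiles of all genes at −0.28 and 0.29.

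**Figure D1:**
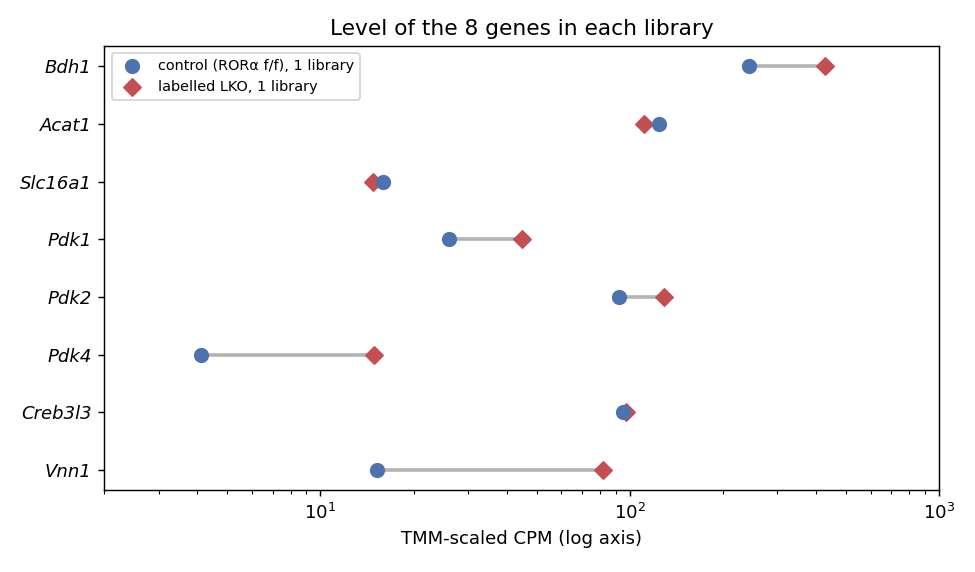
TMM-scaled CPM of each gene on a log axis, with a circle for the control (f/f) library and a diamond for the library labelled LKO (1 library each, no error bars). Vnn1 and Pdk4 show the longest lines between their points, while the points of Creb3l3 nearly coincide.

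Scaling matters for the genes near equality. Scaling by total count would raise every log2 ratio by 0.42. Under it 34.6% of measured genes would pass upwards and 2.53% downwards, and Pdk2 would join the higher ones, for 5 of the 8. Acat1 and Slc16a1, slightly lower under TMM, would then be slightly higher, with log2 ratios of 0.26 and 0.32. Leaving the 20 most abundant genes out of the totals would raise all log2 ratios by 0.12, which also takes Pdk2 past 1.5-fold and Slc16a1 to 0.02.

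**Figure D2:**
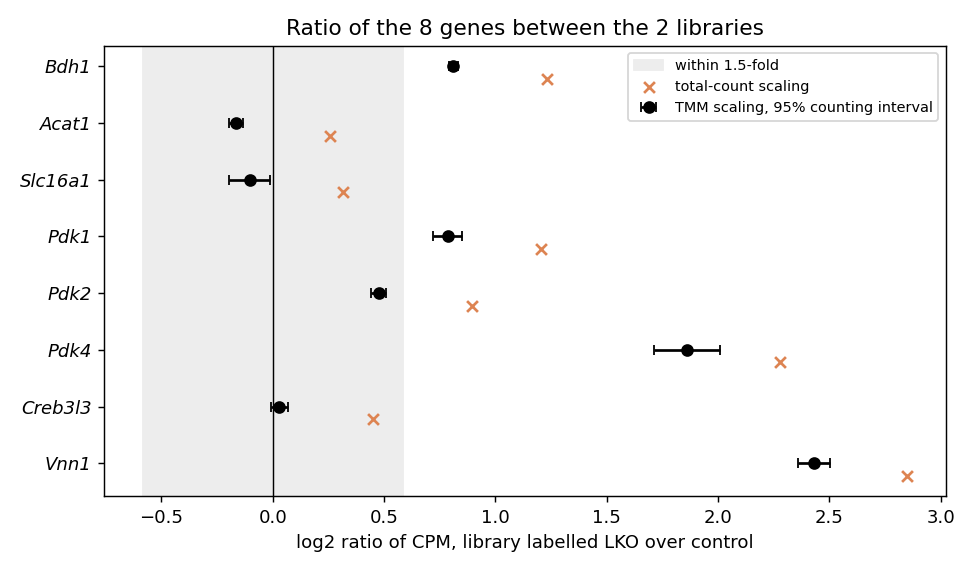
Log2 of the CPM in the library labelled LKO over that in the control, for each gene. Black points with bars are TMM-scaled ratios with 95% counting intervals, crosses are the same ratios with total-count scaling, and the grey band is the range within 1.5-fold. Vnn1, Pdk4, Bdh1 and Pdk1 lie to the right of the band under both scalings, and Acat1 and Slc16a1 change sign.

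Among all measured genes, Vnn1 ranked 65th and Pdk4 121st from the highest ratio. Bdh1 ranked 645th and Pdk1 697th, so that 94.2% and 93.7% of measured genes had lower ratios. Creb3l3 was near the middle, with 53.1% of genes below it, and Acat1 stood lowest of the 8, with 34.7% below it. The 8 genes were thus spread from the middle of the distribution to its upper end.

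**Figure D3:**
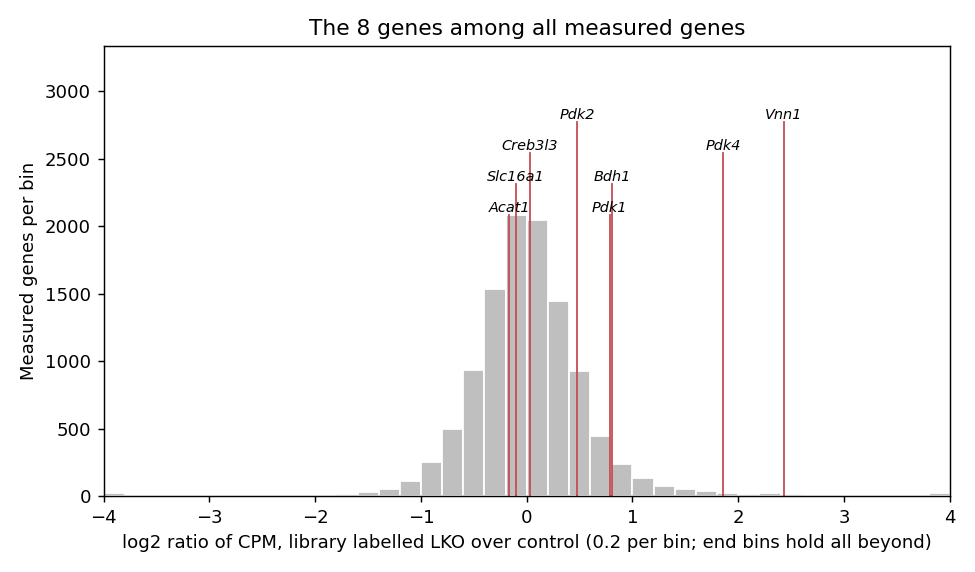
Number of measured genes per bin of log2 ratio, library labelled LKO over control (bins of 0.2, with the end bins holding all genes beyond them). Red lines mark the 8 genes, of which Acat1, Slc16a1 and Creb3l3 fall in the central peak and Pdk4 and Vnn1 in the upper tail.

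The RNA is from whole liver, so a lower level can come from fewer cells of a type or from less RNA per cell, which cannot be told apart. Hepatocyte markers summed to 167782 CPM in the f/f library, against 124776 CPM in the library labelled LKO, with 4 of 9 measured markers at least 1.5-fold lower and 0 higher. Kupffer cell and macrophage markers summed to 142 and 89.0 CPM, with 7 of 9 lower and 0 higher. Stellate cell and fibroblast markers summed to 197 and 278 CPM, with 4 of 8 higher and 0 lower, and endothelial markers to 159 and 174 CPM, with 1 of 8 higher. Only 2 of 8 cholangiocyte markers were measured, and their list summed to 57.2 and 45.1 CPM. Of the red blood cell markers 4 of 6 were measured, with sums of 696 and 684 CPM. Adipocyte markers summed to 15.2 and 25.6 CPM, with 1 of 2 measured markers higher. That marker was Cfd, at 1328 and 3282 counts, and Adrb3 had a log2 ratio of 0.32. Lep, Plin1 and Retn had 0 counts in both libraries and Adipoq had 0 and 4. Neutrophil and lymphocyte markers summed to 3.63 and 2.12 CPM, and skeletal muscle markers to 0.108 and 0.197 CPM. All these values are under TMM, where the median log2 ratio was −0.51 for hepatocyte markers and −0.72 for Kupffer cell and macrophage markers. Total-count scaling would raise each log2 ratio by 0.42 and bring most of the lower markers of both lists within 1.5-fold. Whether these markers were lower thus depends on the scaling. The part of the marker shifts in the ratios of the 8 genes was not tested.

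Of the ketone body genes among the 8, Bdh1 was higher in the library labelled LKO, while Acat1 and Slc16a1 were near equal. Bdh1 encodes the mitochondrial D-β-hydroxybutyrate dehydrogenase, which reduces acetoacetate to β-hydroxybutyrate. It had 26957 counts (243 CPM) in the f/f library and 65039 counts (427 CPM) in the library labelled LKO, or a ratio of 1.75 (interval 1.73 to 1.78). Acat1 encodes the mitochondrial acetoacetyl-CoA thiolase, which joins acetyl-CoA units at the start of ketogenesis and also serves isoleucine breakdown. It had 13819 counts (125 CPM) and 16961 counts (111 CPM), which is 1.12-fold lower (interval 1.10 to 1.15) under TMM. Within each library, and so free of the scaling between them, there were 195 Bdh1 counts per 100 Acat1 counts in the f/f library, against 383 in the library labelled LKO, a 1.97-fold difference (interval 1.91 to 2.02). Bdh1 thus differed from Acat1 by much more than the counting error.

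Slc16a1 encodes MCT1, a proton-coupled carrier of lactate, pyruvate and ketone bodies. It was the least abundant of the 3 genes, with 1764 counts (15.9 CPM) in the f/f library and 2258 counts (14.8 CPM) in the library labelled LKO, a log2 ratio of −0.10 (interval −0.19 to −0.01). This small difference turns positive with total-count scaling, as given above. Per kilobase of the longest annotated transcript, Bdh1 stood at 77.9 CPM in the f/f library, Acat1 at 36.6 and Slc16a1 at 3.60. The corresponding levels in the library labelled LKO were 137, 32.7 and 3.35 CPM per kilobase, so the order of the 3 genes was the same in both.

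The list of ketone synthesis, use and export held genes on both sides. Of the 16 genes reported from it 11 were measured, among them Bdh1, Acat1 and Slc16a1. Of the 11, 3 passed 1.5-fold upwards (Aacs, Slc16a7 and Bdh1) and 1 downwards, where 10.5% and 9.76% of all measured genes did. The lower count was thus near that of genes in general. The median log2 ratio of the 11 was −0.10, against −0.003 for all measured genes, and it was 0.32 with total-count scaling. Aacs, the cytosolic acetoacetyl-CoA synthetase gene that returns acetoacetate to lipid synthesis, was the highest, at 13.4 and 52.9 CPM or 3.95-fold (interval 3.74 to 4.18). Slc16a7, which encodes the high-affinity monocarboxylate carrier MCT2, stood at 18.6 and 41.2 CPM, 2.21-fold higher (interval 2.10 to 2.33). So the 2 carriers of the same family differed, with MCT2 higher and MCT1 near equal.

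Bdh2, which encodes a cytosolic dehydrogenase related to Bdh1, went the other way. It had 1073 counts (9.68 CPM) in the f/f library and 574 counts (3.76 CPM) in the library labelled LKO, a log2 ratio of −1.36. Slc16a6, a further monocarboxylate carrier gene, had a log2 ratio of −0.30, and Bsg, whose product brings MCT1 to the cell membrane, −0.13, and total-count scaling makes both positive. Acat2 and Acat3, which encode cytosolic thiolases and are close copies of each other whose reads may be split, had log2 ratios of 0.20 and −0.22, the second positive with total-count scaling. Oxct1, the gene for the transferase with which other organs burn ketone bodies, was below the measured level in both libraries, at 0.677 and 0.597 CPM, and Oxct2a, Oxct2b and Hmgcll1 had 0 counts in both.

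Pdk1, Pdk2 and Pdk4 had ratios above 1, by different amounts. Pdk4, the isoform most strongly induced by fasting and fatty acids, had 455 counts (4.10 CPM) in the f/f library and 2271 counts (14.9 CPM) in the library labelled LKO, or a ratio of 3.63 (interval 3.28 to 4.02). Pdk1, a target of the hypoxia factor HIF1, had 2884 counts (26.0 CPM) and 6836 counts (44.8 CPM), a ratio of 1.72 (interval 1.65 to 1.80). Pdk2, the widely expressed isoform, had 10258 counts (92.5 CPM) and 19621 counts (129 CPM), a ratio of 1.39 (interval 1.36 to 1.42). The 3 intervals did not overlap. The fourth isoform gene, Pdk3, had only 24 and 17 counts and was not measured.

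Pdk4 had 4.44 counts per 100 Pdk2 counts in the f/f library, against 11.6 in the library labelled LKO, a 2.61-fold difference (interval 2.35 to 2.89) that needs no scaling between libraries. Against Pdk1 the difference was 2.11-fold (interval 1.89 to 2.35), and Pdk1 against Pdk2 differed 1.24-fold (interval 1.18 to 1.30). The isoforms thus shifted relative to one another within the libraries. Per length, Pdk2 nevertheless dominated both. It made up 86.7% of the summed level of the 4 kinase genes per kilobase in the f/f library and 81.5% in the library labelled LKO, Pdk1 10.6% and 12.3%, and Pdk4 2.48% and 6.08%. With the mean length of annotated coding transcripts in place of the longest, the shares of Pdk4 were 4.19% and 10.01%. The summed level was 47.5 and 70.3 CPM per kilobase.

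**Figure D4:**
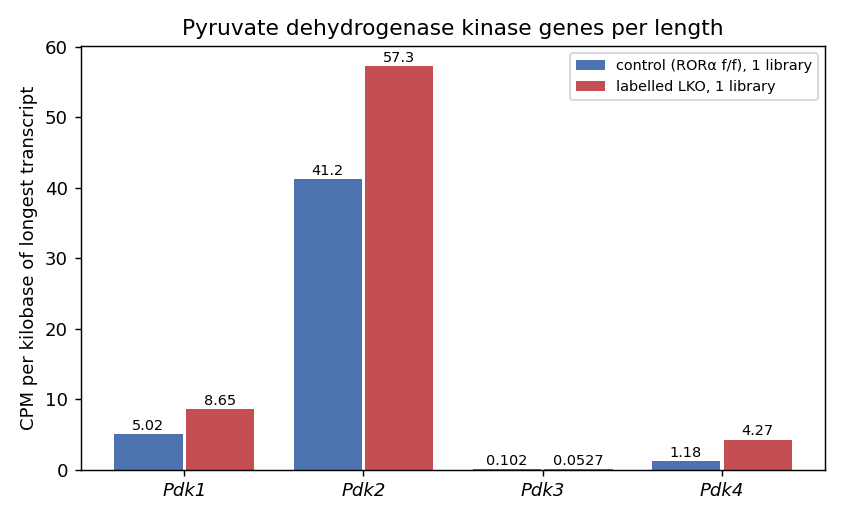
CPM per kilobase of the longest annotated transcript for the 4 pyruvate dehydrogenase kinase genes, with blue bars for the control (f/f) library and red bars for the library labelled LKO (1 library each, no error bars). Pdk2 is the tallest in both, at 41.2 and 57.3, while Pdk4 goes from 1.18 to 4.27.

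The sequences before the start sites of the 3 kinase genes are shown because these paralogs share a function and differed in ratio. Each is the 250 bases before a RefSeq start site (GRCm38.p6), read 5′ to 3′ on the gene's own strand, and capitals mark a match to any of the motifs named below. The Pdk4 window is chr6:5496279-5496528 on the minus strand, the Pdk1 window chr2:71872974-71873223 on the plus strand and the Pdk2 window chr11:95041372-95041621 on the minus strand. For Pdk1 and Pdk2 RefSeq gives a second start site, which is not printed.
Pdk4: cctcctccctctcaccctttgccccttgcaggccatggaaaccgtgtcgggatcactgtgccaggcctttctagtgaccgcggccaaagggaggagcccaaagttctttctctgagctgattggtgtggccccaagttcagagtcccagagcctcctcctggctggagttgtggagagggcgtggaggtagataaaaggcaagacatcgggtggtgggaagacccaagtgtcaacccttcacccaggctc
Pdk1: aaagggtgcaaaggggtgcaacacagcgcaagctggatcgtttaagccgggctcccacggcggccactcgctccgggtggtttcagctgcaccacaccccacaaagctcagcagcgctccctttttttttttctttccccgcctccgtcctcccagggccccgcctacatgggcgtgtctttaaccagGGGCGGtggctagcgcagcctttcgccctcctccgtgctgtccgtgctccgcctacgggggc
Pdk2: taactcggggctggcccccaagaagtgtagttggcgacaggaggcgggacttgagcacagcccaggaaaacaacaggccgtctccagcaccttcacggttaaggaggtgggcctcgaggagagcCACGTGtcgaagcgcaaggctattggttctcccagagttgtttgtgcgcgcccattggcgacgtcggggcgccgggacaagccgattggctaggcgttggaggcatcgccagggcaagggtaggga

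Windows were found for 6 of the 8 genes, with 10 start sites, and not for Vnn1 and Acat1. Both strands were searched for AGGTCA, the core that nuclear receptors bind, for TAGGTCA and TGGGTCA, which are longer cores bound by RORs, of which the first contains AGGTCA, and for a DR1, which is a pair of AGGTCA with 1 base between them, as PPARα binds. The other motifs were the cAMP response element TGACGTCA, the forkhead core GTAAACA, the E-box CACGTG and the GC box GGGCGG. In the printed windows the matches were GGGCGG at 62 to 57 bases before the Pdk1 start and CACGTG at 126 to 121 bases before the Pdk2 start, and Pdk4 had none of these letters. Elsewhere, the second Pdk1 window held TGGGTCA, a Creb3l3 window held AGGTCA, and the Slc16a1 window held CACGTG and GGGCGG. Of all 32851 RefSeq windows of this length, 14.0% held AGGTCA, 2.23% TAGGTCA, 3.24% TGGGTCA, 0.0335% the DR1, 1.55% TGACGTCA, 3.17% GTAAACA, 6.02% CACGTG and 32.7% GGGCGG. The GC content was 58.8% for Pdk4, 64% for Pdk1 and 62.4% for Pdk2, against a median of 52.4% over all windows.

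The complex that the kinases act on differed less than Pdk4. Of 17 listed genes of the pyruvate dehydrogenase complex and its regulators 16 were measured, including the 3 kinases. Of the 16, 3 passed 1.5-fold upwards (Pdk4, Dlat and Pdk1) and 1 downwards, and the median log2 ratio was 0.05. Over all measured genes the shares were 10.5% and 9.76%, so the lower count was near that of genes in general. With total-count scaling 7 of the 16 were higher, where 34.6% of all measured genes were. Among its subunits, Dlat, the gene of the acetyltransferase core, was 1.77-fold higher (interval 1.66 to 1.89), at 11.8 and 20.8 CPM. Pdhb, a subunit of the decarboxylase, and Pdhx, which anchors the dihydrolipoamide dehydrogenase, had log2 ratios of −0.36 and −0.42. Dld, the dehydrogenase gene itself, had −0.28 and Pdha1, the other decarboxylase subunit, 0.41. With total-count scaling Pdhb and Dld turn to 0.06 and 0.14 and Pdhx to −0.002, so whether the subunits share a direction depends on the scaling.

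On the opposing side, Pdp1, a phosphatase gene whose product reactivates the complex, was the lowest of the list. It had 279 counts (2.52 CPM) in the f/f library and 111 counts (0.728 CPM) in the library labelled LKO, a log2 ratio of −1.79 (interval −2.12 to −1.47). Lipt2, of lipoic acid attachment, had a log2 ratio of −0.46. Mpc1 and Mpc2 form the mitochondrial pyruvate carrier and were the most abundant genes of the list per length. Their log2 ratios were −0.05 and −0.18, and total-count scaling makes them positive. Mpc1 is also positive, at 0.08, with totals that omit the 20 most abundant genes. The other phosphatase gene, Pdp2, had a log2 ratio of 0.38 (interval 0.25 to 0.51), and Pdpr, whose product regulates the phosphatase, 0.08. Pdp1 was thus the lowest measured gene of the list and Pdk4 the highest, while Pdp2 lay above equality.

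Creb3l3 encodes CREBH, a liver-enriched transcription factor that is held in the endoplasmic reticulum and released by cleavage in the Golgi, and that acts with PPARα on fasting genes. Its transcript was nearly equal in both libraries, with 10547 counts (95.1 CPM) in the f/f library and 14814 counts (97.2 CPM) in the library labelled LKO. The ratio was 1.02 and the interval of its log2 ratio, −0.01 to 0.07, held 0. The genes of the proteases that cleave it were also near equal, with log2 ratios of 0.10 for Mbtps1 and 0.20 for Mbtps2. Of related factors, Creb3 and Creb3l2 had log2 ratios of −0.38 (positive with total-count scaling) and 0.11, and Creb3l1, at 1.19 and 1.68 CPM, 0.50.

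The list of CREBH, its processing and its reported targets holds Creb3l3, its relatives, the proteases and the reported target genes together. Of the 25 listed genes 23 were measured, with a median log2 ratio of 0.20. Of the 23, 8 passed 1.5-fold upwards and 0 downwards, where 10.5% and 9.76% of all measured genes did. With total-count scaling 12 were higher, where 34.6% of all measured genes were. The highest were the lipid droplet gene Cidec, the hormone gene Fgf21 and Elovl5, which elongates polyunsaturated fatty acids, with log2 ratios of 3.84, 2.20 and 1.59. The lowest of the measured genes were Hamp, which encodes hepcidin, Creb3, given above, and Apoc3, an inhibitor of lipoprotein lipase and the most abundant of the list, with log2 ratios of −0.45 for Hamp and −0.36 for Apoc3, the latter positive with total-count scaling. Fgf21 and Angptl4 are also in the list of PPARα targets below.

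Vnn1 had the largest ratio of the 8 genes. It encodes an enzyme anchored to the cell surface that splits pantetheine into cysteamine and pantothenate, the vitamin precursor of coenzyme A. It had 1688 counts (15.2 CPM) in the f/f library and 12518 counts (82.1 CPM) in the library labelled LKO, or a ratio of 5.39 (interval 5.12 to 5.68). In the f/f library it stood above 62.7% of measured genes in CPM, and in the other library above 89.7%. Its relative Vnn3 lies 24845 bases away on the same strand of chromosome 10 and had 1729 and 4447 counts, a ratio of 1.87 (interval 1.77 to 1.98). There were 97.6 Vnn1 counts per 100 Vnn3 counts in the f/f library and 281 in the other, a 2.88-fold difference (interval 2.67 to 3.11). The 2 neighbours were thus both higher, Vnn1 by more.

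Other genes of coenzyme A supply went both ways. All 14 listed genes were measured, with a median log2 ratio of 0.28. Of the 14, 5 passed 1.5-fold upwards (Vnn1, Vnn3, Pank1, Pank3 and Slc25a42) and 1 downwards. The shares of all measured genes were 10.5% and 9.76%, so the lower count was near that of genes in general. With total-count scaling 8 of the 14 were higher, where 34.6% of all measured genes were. Pank1, a PPARα-responsive pantothenate kinase gene that starts coenzyme A synthesis, was 1.84-fold higher (interval 1.79 to 1.88), at 73.8 and 135.5 CPM, and Pank3 was 1.65-fold higher. The carrier gene Slc25a42, which brings coenzyme A into mitochondria, was 1.55-fold higher. Nudt7, which encodes a peroxisomal hydrolase that degrades coenzyme A, was the 1 gene past the threshold downwards, at 983 and 416 CPM, 2.36-fold lower (interval 2.34 to 2.38). For Nudt8 and Pank4 the log2 ratios were −0.32 and −0.22, and total-count scaling makes them positive.

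Among regulators of the fasting response, 5 of 21 passed 1.5-fold upwards and 2 downwards, and their median was a log2 ratio of 0.18. Over all measured genes the shares were 10.5% and 9.76%, so the lower count was near that of genes in general. With total-count scaling 12 were higher and 1 lower, where 34.6% and 2.53% of all measured genes were. Ppara, the gene of PPARα itself, had 18800 counts (169.6 CPM) in the f/f library and 45467 counts (298 CPM) in the library labelled LKO, or a ratio of 1.76 (interval 1.73 to 1.79) that is close to those of Bdh1 and Pdk1. Txnip, a glucose-responsive inhibitor of glucose uptake, was the highest at 4.79-fold, followed by Lpin2 and Foxa2 at 2.51-fold and 2.05-fold. The lowest were Sik1 and Nr4a1, both induced rapidly by glucagon and cAMP, with log2 ratios of −1.54 and −0.80, and the glucocorticoid-responsive Klf15, with −0.58.

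PPARα targets apart from the 8 genes were mostly higher. All 31 genes reported from this list were measured, with a median log2 ratio of 0.96. Of the 31, 18 passed 1.5-fold upwards and 0 downwards, where 10.5% and 9.76% of all measured genes did. With total-count scaling 25 were higher, where 34.6% of all measured genes were. Vnn1, with a log2 ratio of 2.43, and Pdk4, with 1.86, stood within the range of the 31. That range ran from −0.43 for Fabp1 to 2.51 for Cyp4a10. Cyp4a14 and Acot3 followed Cyp4a10, at 2.39 and 2.30, and all 3 belong to families of close copies, so reads can be split between genes. Bdh1 and Pdk1, with 0.81 and 0.79, stood below that median. Creb3l3 stood near the low end of the range, where Acaa2 and Hadhb had −0.37 and 0.005, the first positive with total-count scaling and the second at −0.008 with upper quartile scaling. This list was drawn up with the direction of many of its genes already known from these libraries, so its count is not independent evidence.

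**Figure D5:**
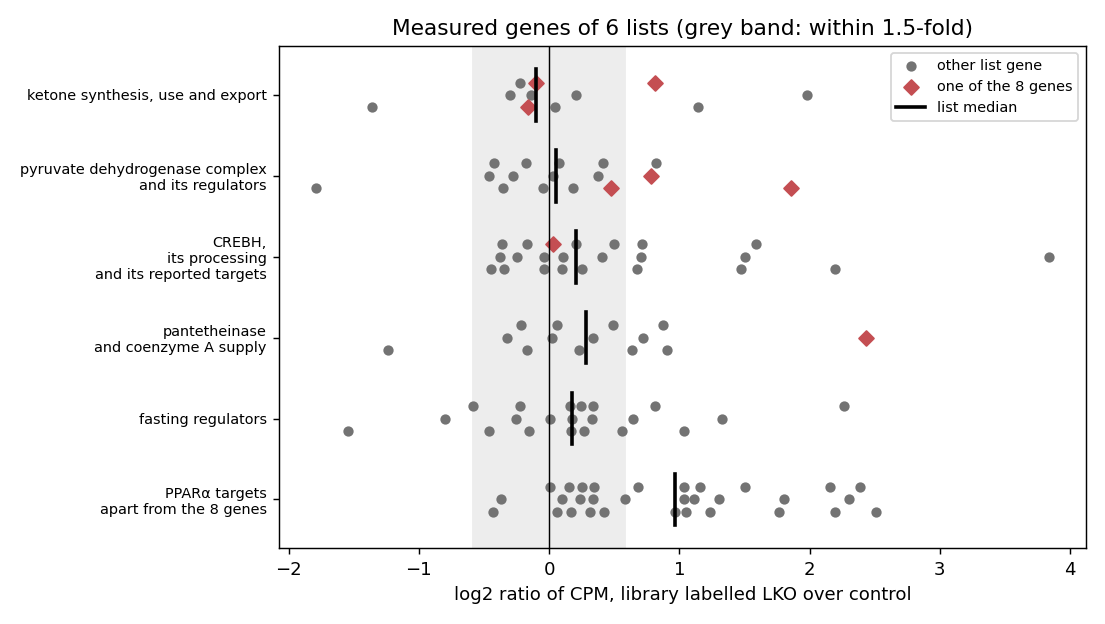
Log2 of the CPM in the library labelled LKO over that in the control, of each measured gene in 6 lists (points are spread vertically only to be seen). Red diamonds are genes among the 8, black bars are list medians and the grey band is the range within 1.5-fold. The median of the PPARα targets, at 0.96, is the only one outside the band.

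How far other genes could add to these counts was read from the GENCODE M21 annotation (GRCm38, the assembly of mm10). Transcripts of Acat1, Slc16a1, Pdk1, Pdk2, Creb3l3 and Vnn1 shared no stretch of 50 bases with those of another gene. Pdk4 shared 1.40% of its stretches with 197 other genes, and Bdh1 shared 11.1% with the antisense gene Gm15743, which overlaps it by 1901 bases. Pdk2 overlaps the antisense gene Gm11513 by 5525 bases, but on neither strand do their transcripts share a stretch of 50 bases. Slc16a1 overlaps 2 gene models inside its introns. As the sources used here do not state the use of strand, reads of Bdh1 and Gm15743 in their shared stretches cannot be told apart. The genes lie on chromosomes 16 (Bdh1, 31422280 to 31458901), 9 (Acat1, 53580522 to 53610382), 3 (Slc16a1, 104638668 to 104658462), 2 (Pdk1, 71873224 to 71903858), 11 (Pdk2, 95026258 to 95041354), 6 (Pdk4, 5483351 to 5496309) and 10 (Creb3l3, 81084324 to 81098874, and Vnn1, 23894688 to 23905343), and all are protein coding.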

How the data were processed

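The authors deposited 1 table of whole-number read counts per gene symbol for each of the 2 libraries, with no normalization. Per the labels' protocols, libraries were made with a LEXOGEN kit for mRNA from 500 ng of RNA. Per the submitters' processing notes, TopHat, edgeR and build mm10 were used. The sources used here do not give the counter, the annotation, the use of strand or what was done with multi-mapping reads.

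TMM factors (edgeR 4.0.16, R 4.3.3) were 0.865 for the control library and 1.16 for the library labelled LKO. Given the sum of a gene's counts, ratios of CPM carry a 95% Clopper-Pearson interval (scipy 1.17.1). Intervals of 2 genes against each other within libraries are 95% normal intervals of the log ratio. PCR duplicates are not independent molecules, so intervals cover counting error only. With 1 library per group, no p-value is given.

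The 8 genes and all lists were chosen with earlier results of these data known. Named genes are the 8, their paralogs, and the 3 highest, 3 lowest and 2 most abundant of the lists on ketone bodies, pyruvate dehydrogenase, CREBH and coenzyme A, with the 3 highest, the 3 lowest and Ppara of those on fasting regulators and PPARα targets. Other list genes that are named, such as Pdp2, Pank3, Mbtps1 and Oxct1, were picked once values were known. Some genes of the lists on ketone bodies and PPARα targets are not reported here, and the counts and medians of those lists leave them out. Transcript lengths and positions are from GENCODE M21 and sequences from RefSeq (GRCm38.p6). Alternatives were other scalings, added counts, filters and fold thresholds.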

Additional observations from a re-analysis of the deposited data

How the results depend on the processing

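With 1 library per group no replicate could be left out, and neither a batch nor the spread between animals can be read. At 2-fold in place of 1.5-fold, 2 of the 8 genes, Vnn1 and Pdk4, were higher and 0 lower, while 426 and 292 measured genes were higher and lower in place of 1169 and 1087. At a ratio of 5 to 4 the 8 genes gave 5 higher and 0 lower, and all measured genes 2535 and 2516. With total-count scaling 3866 measured genes were 1.5-fold higher and 282 lower, and with totals that omit the 20 most abundant genes 1703 and 741. With no filter on low counts the numbers were 2389 and 2111, and at a mean CPM of at least 10 they were 431 and 486. Median-of-ratios scaling (DESeq2 1.42.0) and upper quartile scaling moved every log2 ratio by −0.0008 and −0.01, and left 4 of the 8 genes higher. Adding 0.5 or 5 counts moved no named list gene that has a ratio beyond its interval.

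An alternative chosen after the data were seen divided counts by the number of curated RefSeq transcripts, in case a read was counted once for each. It widened the intervals of the 4 genes with 2 such transcripts (Bdh1, Pdk1, Pdk2 and Creb3l3), for example to 1.62 to 1.83 for Pdk1, and changed none of the 8 genes' calls. With mean transcript length, the level of Bdh1 was 136.3 and 239 CPM per kilobase and that of Pdk4 2.02 and 7.34.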
